A study of Mus musculus with 4 samples.

Results

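T cells of the stomach epithelial layer were compared with T cells of the colon epithelial layer, using the single-cell libraries of 2 tissues. The cells were chosen by their measured UMI counts: a barcode was taken as a T cell when it carried at least 2 UMIs (unique molecular identifiers, 1 per captured transcript) summed over Cd3d, Cd3e and Cd3g, the signalling chains of the T cell receptor complex, and 0 UMIs summed over Cd79a, Cd79b, Lyz2, Cpa3 and Ncr1, which mark B cells, myeloid cells, mast cells and NK cells. This gave 203 T cells of 3199 stomach barcodes and 2837 of 3764 colon barcodes, together 3040 of the 14378 barcodes of the series. Both groups were live leukocytes sorted as CD45.2+ from intraepithelial preparations of C57BL/6 mice with no infection, and each was 1 droplet library made with 10x Genomics 3′ chemistry, version 2. The labels give neither the age nor the number of mice behind a library. The protocol text is shared by all 4 records of the series (stomach, small intestine, cecum and colon) and mentions colons alone, so the tissue labels were used. Each tissue gave 1 library, so no difference could be checked against replicates and no p-value is given, and tissue, animal, library and sequencing run cannot be told apart. The 8 genes of the selection rule, and Cd8a where cells were divided by it, are not treated as results.

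Intraepithelial lymphocytes sit between the epithelial cells that line the gut. The natural kind carries either a gamma-delta T cell receptor or an alpha-beta receptor with the CD8 alpha-alpha homodimer, is marked by low CD5 and by NK-type receptors and adaptors, and depends on the aryl hydrocarbon receptor for its maintenance. The induced kind derives from conventional T cells that met antigen in lymphoid tissue, and carries an alpha-beta receptor with CD4 or the CD8 alpha-beta heterodimer, whose beta chain is encoded by Cd8b1.

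The stomach T cells held 530984 UMIs (median 2456 per cell, range 1121 to 7241) and the colon T cells 9383724 (median 2952, range 257 to 42828). The stomach library was mostly other cells: 1713 barcodes met a mast cell gate, 272 a macrophage gate, 271 an NK cell gate and 71 a B cell gate, against 3, 50, 44 and 178 in colon. A further 113 stomach and 548 colon barcodes had at least 2 Cd3 UMIs but also a UMI of an excluded gene, and were left out. Just inside the limit, 5 stomach and 23 colon cells had exactly 2 Cd3 UMIs, and just outside it 6 and 21 had exactly 1. A UMI of a T cell receptor constant region was found in 99.0% of the stomach cells and 99.8% of the colon cells, but also in 94.1% and 97.7% of NK cells. One of Trac or Trdc was found in 85.7% and 91.3% of T cells and 11.8% and 27.3% of NK cells. No barcode was shared between the stomach and colon T cells. Transcripts of other cell types were present in the stomach T cells. The 15 mast cell markers summed to 693 CPM in stomach (the gene's share of all UMIs summed over the cells, scaled to 1e+06). There 123 of 203 cells had a UMI and Mcpt2 led with 150 UMIs. The colon library lists 6 of the 15, which summed to 193 CPM, and 1772 of the 1812 UMIs were Kit. Of these 15 genes 10 were above 0 in stomach T cells, among them Mcpt1 with 50 UMIs in 32 cells, and the defining genes Mcpt4, Mcpt9, Ms4a2 and Cma2 were at 0. The 15 markers reached 135395 CPM in the stomach mast cell gate. The 16 macrophage and monocyte markers, 15 of them listed for colon, summed to 160.1 CPM in stomach and 30.4 in colon T cells. C1qb, Csf1r, Fcgr1, Fn1 and Cd14 were at 0 in stomach. The 15 B cell markers summed to 292 and 513 CPM, led by Ighm with 133 and 3874 UMIs, with Ms4a1, Pax5 and Ebf1 at 0 in stomach. The 15 NK markers, many of which intraepithelial T cells also express, summed to 4964 and 8647 CPM, with Khdc1a at 0 in both. The 12 markers of type 2 innate lymphoid cells, 10 of them listed for colon, summed to 527 and 132 CPM, led by Gata3. The 14 dendritic cell markers summed to 654 and 383 CPM. The mast cell sum was 303 CPM in Cd8a-positive and 827 CPM in Cd8a-negative stomach T cells. The part of such transcripts in the differences below was not tested, and genes such as Mcpt2 and Apoe, for which T cells held less than 20% of the CPM of some other cell type on the side with more, were set apart from the named genes.

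Which transcripts differ between T cells of the 2 tissues was asked first over all T cells. Stomach T cells carried more of the CD8 beta chain, of genes of conventional T cells, of the chemokine receptors Ccr2 and Cxcr6 and of S100 and annexin genes, and less of the gamma receptor chains, of Ahr and Ikzf2, and of granzymes A and B. Of 4456 genes listed in both libraries, with at least 20 UMIs in total and 50 CPM in either, 294 (6.60%) were at least 2-fold higher in stomach and 447 (10.0%) at least 2-fold lower, with the 95% interval of the ratio excluding 1. These 2 shares are the background against which the member counts of each gene list below are read. A gene that reached 50 CPM in 1 tissue alone could only come out higher there, in the lists as among all genes compared. All intervals on ratios and shares are exact and cover counting error only. The median gene differed by −0.05 on the log2 scale (stomach minus colon), and none of 16 genes common to leukocytes passed the 2-fold limit (median 0.25). Among the 12 most clearly higher genes were Cd163l1, Krt83, Anxa1, S100a4, Ccr2, Nrp1, Ly6a, Cd8b1, Bcl2a1a and Socs2, and among the 12 most clearly lower were Taf10, Hist1h2ac, Smap1, Mei1, Epcam, Cited4 and Capn3. Many of the lower genes were lower in other cells too: 216 of the 447 were also at least 2-fold lower in at least 2 of the B, NK and macrophage cells of the same libraries, and 42 of the 294 higher genes were likewise higher there. A gene of this kind is called library-wide below, and whether the difference belongs to the T cells or to the library was not tested. Only cell types with at least 10 UMIs of the gene were counted, so genes that those cells barely express could not be called library-wide. Between T cells of cecum and colon, as a comparison of 2 other libraries, 0.349% of 4298 genes were higher and 1.91% lower by the same rule, and between small intestine and colon 2.97% of 4484 were higher and 2.32% lower.

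**Figure D1:**
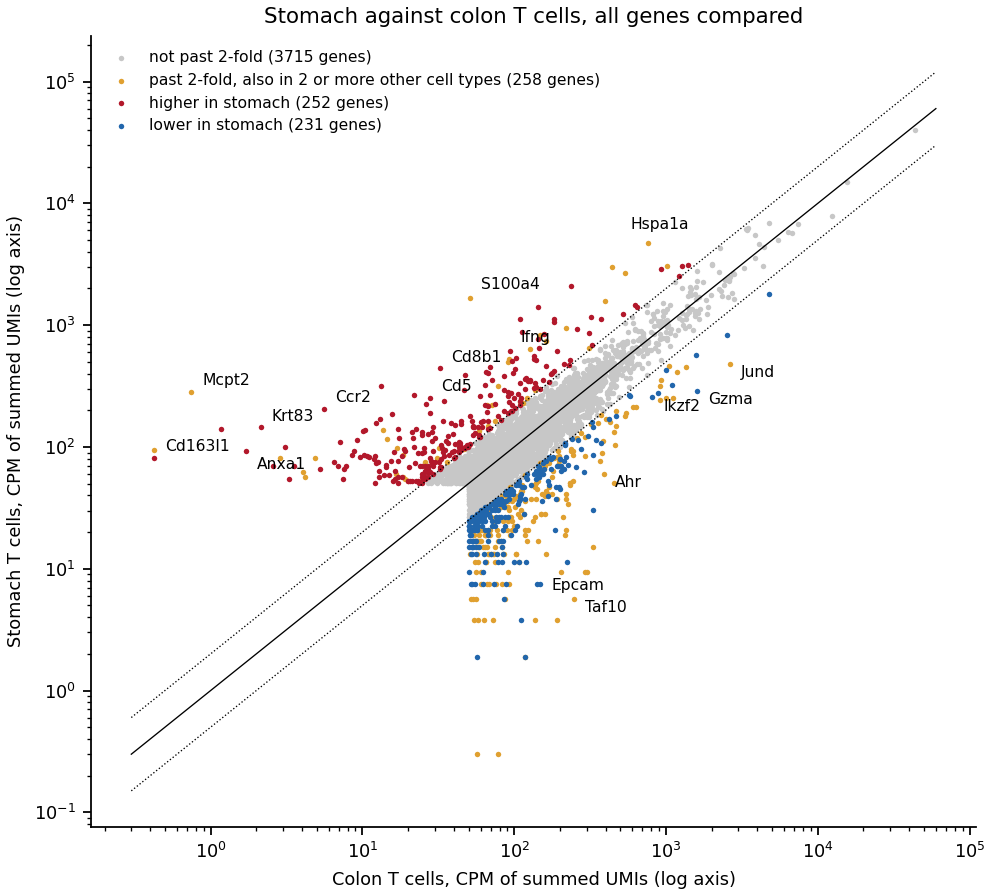
Each point is 1 of 4456 genes, by its CPM summed over colon T cells (x) and stomach T cells (y), both on log axes with values of 0 placed at the lower edge. The 252 genes higher and 231 lower in stomach are coloured, the 258 that changed likewise in at least 2 other cell types are set apart, and the remaining 3715 lie between the 2-fold limits or have an interval that includes 1.

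Taken over all T cells, those of stomach carried more of the CD8 beta chain and of CD4 and less of the gamma chains. Of 20 genes of the receptor and its co-receptors, 8 were higher in stomach (Cd8b1, Cd5, Cd4, Cd6, Cd28, Thy1, Cd2 and Lat). Another 3 were lower (Tcrg-C1, Tcrg-C2 and Tcrg-C4), and the median log2 difference was 0.31. Cd8b1, Cd5 and Cd4 reached 50 CPM in stomach alone and Tcrg-C2 in colon alone. The filter fixed their direction, so the count and median are no support by themselves. Cd8b1 (chromosome 6, 71322788 to 71337494, GRCm38, plus strand) encodes the CD8 beta chain. It reached 443 CPM in stomach T cells (235 UMIs in 50 cells) and 32.6 CPM in colon T cells (306 UMIs in 144 cells), a 13.6-fold difference (95% interval 11.4 to 16.1). Cd5, an inhibitory receptor that sets the threshold of receptor signalling, stood at 252 CPM in stomach and 27.8 CPM in colon, 9.07-fold higher (7.31 to 11.2). Cd4 had 44 UMIs in 26 stomach cells and 104 UMIs in 65 colon cells, or 82.9 against 11.1 CPM. These 3 genes were also lower in the T cells of small intestine and cecum than in stomach: Cd8b1 stood at 56.2 and 36.9 CPM there, Cd5 at 28.9 and 46.6, and Cd4 at 28.5 and 12.8. Tcrg-C2, a constant region of the gamma chain, had 4 UMIs in stomach T cells and 687 in colon T cells, or 7.53 against 73.2 CPM. The alpha chain constant region Trac differed by less than 2-fold, with 531 UMIs in stomach and 8319 in colon (log2 difference 0.17). The delta chain constant region Trdc stood at 360 CPM in stomach and 470 CPM in colon, a log2 difference of −0.39. Within Cd8a-negative cells Tcrg-C2 alone of the gamma chains was lower by the same rule. In Cd8a-negative cells with a Trdc UMI none of the gamma chains was.

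Shares of cells with a UMI were compared after every cell was thinned to 1000 UMIs, which left out 8 colon cells, since the median depth differed. Cd8b1 was found in 21.2% of 203 stomach T cells (15.8% to 27.5%) and 2.62% of 2829 colon T cells (2.06% to 3.27%), or 24.6% and 5.08% without thinning. In B cells of the same libraries, which lack the gene (median 1870 and 1931.5 UMIs), the thinned shares were 0 of 70 cells, for which the limit is 4.29%, and 0.562%. Trdc was found in 13.3% of stomach cells (8.95% to 18.8%) and 19.8% of colon cells (18.4% to 21.3%), and in 0 thinned B cells of either library. Without thinning the Trdc shares were 15.3% and 25.8%. Trac was found in 57.1% and 52.3%, intervals that overlap, and in 73.4% and 81.8% without thinning. Tcrg-C2 was found in 0 of 203 stomach cells after thinning, for which the limit set by 3 cells is 1.48%, and in 6.26% of colon cells (1.97% and 19.7% without thinning). Cd4 was found in 6.90% (3.82% to 11.3%) and 1.17% (0.804% to 1.63%), or 12.8% and 2.29% without thinning.

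**Figure D2:**
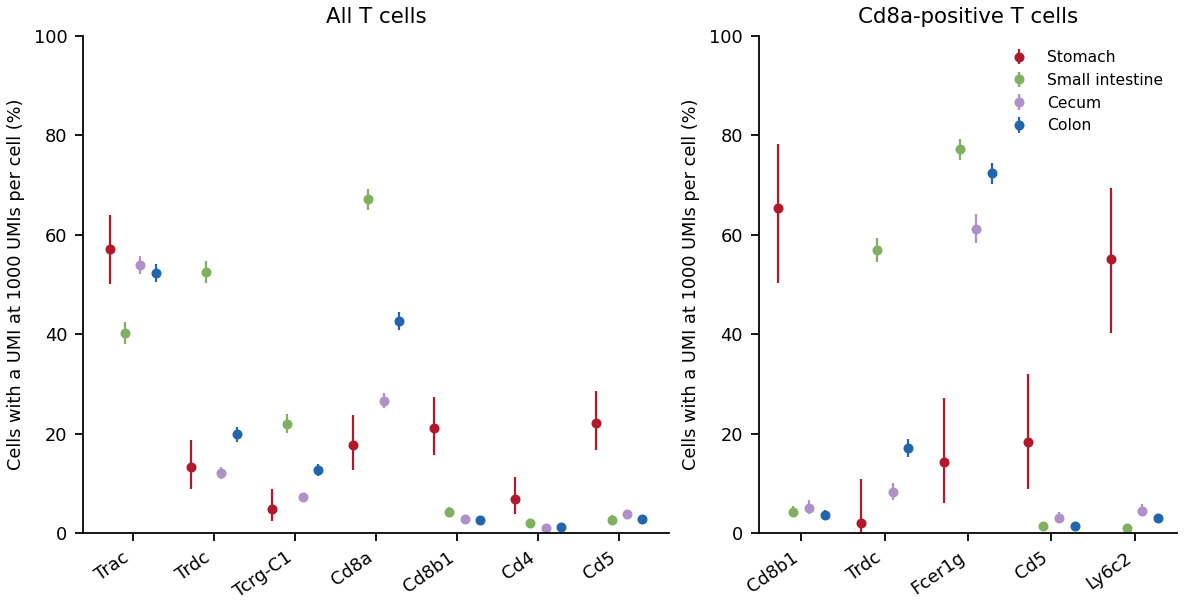
Percent of cells with at least 1 UMI of each gene after thinning to 1000 UMIs, in the 4 libraries, with exact 95% intervals. The left panel shows all T cells and the right panel Cd8a-positive T cells. Among all T cells, stomach lies above the other 3 libraries for Cd8b1, at 21.2% against 2.62% in colon, and below colon for Trdc.

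Cells with a Cd8a UMI made up 49 of the stomach T cells (135462 UMIs) and 1659 of the colon T cells (5922049 UMIs). Those of stomach were mostly CD8 alpha-beta cells and those of colon mostly lacked the beta chain. Cd8b1 was detected in 42 of the 49 stomach cells (85.7%) and 124 of the 1659 colon cells (7.47%), and in 65.3% (50.4% to 78.3%) and 3.68% (2.83% to 4.70%) after thinning. Its level was 1380 CPM (187 UMIs) against 45.4 CPM (269 UMIs). Of 4647 genes compared in these cells, 414 (8.91%) were higher and 555 (11.9%) lower in stomach. Fcer1g, the signalling adaptor that natural intraepithelial lymphocytes carry, stood at 443 CPM in 9 stomach cells and 1856 CPM in 1458 colon cells, a log2 difference of −2.07. Trdc had 17 UMIs in 2 of the stomach cells and 2386 UMIs in 373 of the colon cells.

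Genes of circulating and naive T cells were higher in the Cd8a-positive stomach cells. Of 21 compared, 13 were higher, among them Dapl1, Ly6c2, Ccr7, Lef1, S1pr1 and Il7r, and 1, Bcl2, was lower, with a median log2 difference of 1.91. Members such as Ccr7 and Il7r reached 50 CPM in stomach alone, which fixed their direction, so the count and median are no support by themselves. Ly6c2 reached it in both tissues. Ly6c2, a surface protein of effector and memory CD8 T cells, stood at 1535 CPM in stomach (208 UMIs in 31 cells) and 61.1 CPM in colon (362 UMIs in 81 cells), 25.1-fold higher (21.1 to 29.9). Dapl1 had 30 UMIs in 6 stomach cells and 45 UMIs in 13 colon cells, a 29.1-fold difference (17.7 to 47.3). Ccr7, the receptor that guides T cells into lymph nodes, had 26 UMIs in 9 stomach cells and 98 UMIs in 37 colon cells, or 192 against 16.5 CPM. Il7r, the survival receptor for interleukin 7, stood at 295 and 28.9 CPM. Bcl2, a library-wide gene that protects cells from death, went the other way at 258 and 1181 CPM. In the Cd8a-negative cells 2 of 20 members were higher (Il7r and S1pr4) and 5 lower (Bcl2, Igfbp4, Klf2, Klf3 and Tcf7), with a median of −0.10. Klf2, which drives expression of the tissue exit receptor S1pr1, was at 374 CPM in stomach and 1333 CPM in colon there, and was also at least 2-fold lower in all 3 other cell types.

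Since the Cd8a-positive cells of the 2 tissues differ in the beta chain, the comparison was repeated on cells with UMIs of both Cd8a and Cd8b1, 42 in stomach and 124 in colon. Of 4434 genes, 217 (4.89%) were higher and 463 (10.4%) lower. The circulating and naive genes then had a median log2 difference of 0.19, with 6 of 21 higher and 4 lower. Ccr7 was at 0.65, Lef1 at 0.19 and S1pr1 at 0.05, none past 2-fold, while Ly6c2 remained higher at 3.01 (1760.5 against 218 CPM). Dapl1 was higher at 1.41. Genes tied to tissue residency kept a negative median, at −0.85 with 0 of 20 higher and 8 lower. Library-wide genes made up 2 of these 8 and 3 of the 4 lower circulating and naive genes. Ikzf2, which encodes the transcription factor Helios, had 1 UMI in the 42 stomach cells and 270 UMIs in 81 of the 124 colon cells. Ahr, a library-wide gene, had 1 UMI and 142 UMIs.

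**Figure D3:**
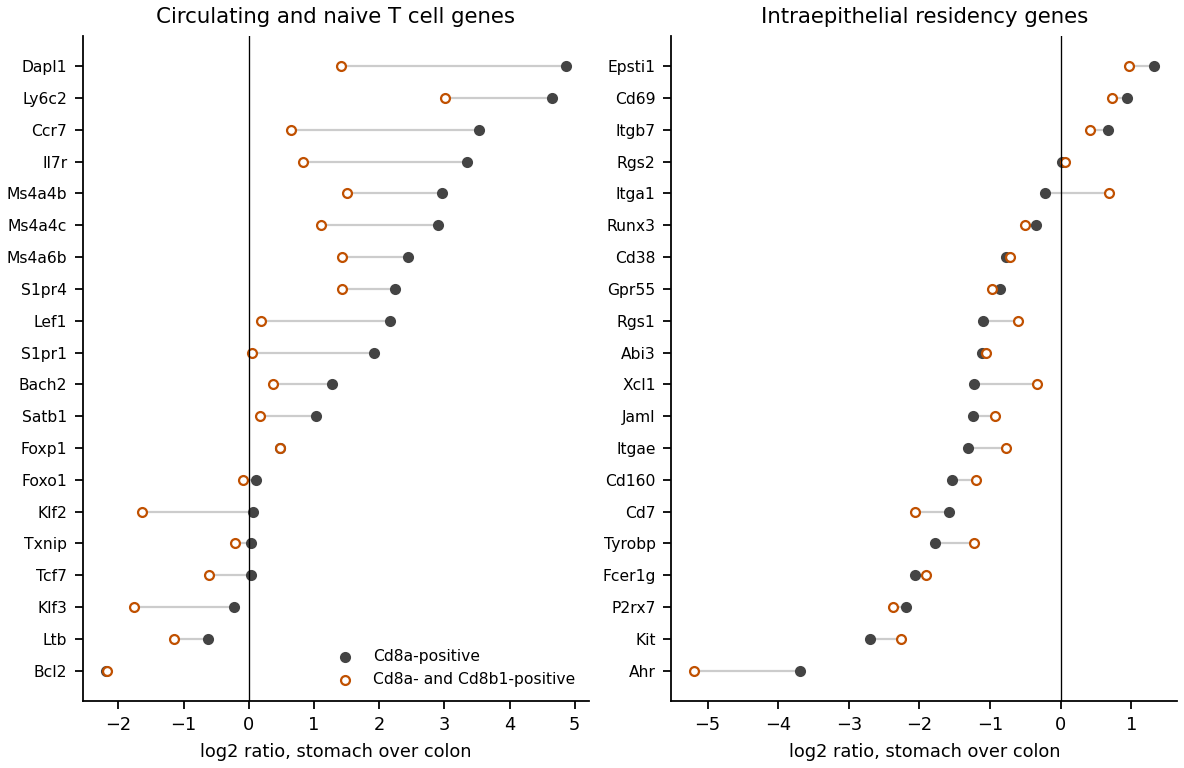
Log2 difference (stomach minus colon) of 20 of the 21 circulating-naive genes and of 20 residency genes, in all Cd8a-positive T cells and in those with UMIs of both Cd8a and Cd8b1. The median of all 21 circulating-naive genes is 1.91 in the first set and 0.19 in the second, and that of the residency genes is −1.17 and −0.85.

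Residency genes of intraepithelial lymphocytes included lower members in both kinds of cell, and most did not pass the limit in Cd8a-negative cells. Over all T cells 8 of 20 compared were lower (Ahr, Gpr55, Kit (also a mast cell marker), Cd7, P2rx7, Cd160, Itgae and Abi3) and 1 higher (Rgs2), with a median of −0.57. Of these 8 lower genes 2 were library-wide. The counts were 12 lower and 1 higher (Epsti1) in Cd8a-positive cells, with a median of −1.17, and 4 lower and 1 higher (Rgs2) in Cd8a-negative cells, with a median of −0.29. Ahr (chromosome 12, 35497974 to 35535038, minus strand) encodes the aryl hydrocarbon receptor, a sensor of dietary and microbial ligands. It stood at 60.3 CPM in stomach (32 UMIs in 25 cells) and 391 CPM in colon (3667 UMIs in 1620 cells), 6.48-fold lower (4.59 to 9.49). Small intestine was at 270.4 CPM and cecum at 389 CPM, so stomach was the lowest of the 4 libraries. Ahr was also at least 2-fold lower in the B and NK cells of the stomach library. Ikzf2 (chromosome 1, 69531214 to 69687245, minus strand) stood at 256 CPM in stomach (136 UMIs in 63 cells) and 810.3 CPM in colon (7604 UMIs in 2263 cells), 3.16-fold lower (2.67 to 3.78), and was at 777 and 916 CPM in small intestine and cecum. In NK cells the order was reversed, at 255 CPM in stomach and 115 CPM in colon. Itgae, which encodes the integrin subunit CD103 that anchors lymphocytes to E-cadherin, was at 113 and 264 CPM over all T cells. Within Cd8a-negative cells its log2 difference was −0.73, short of 2-fold. Cd69, another residency marker, was at 669 CPM in stomach and 433 CPM in colon. Among 12 genes of TGF-beta and aryl hydrocarbon receptor signalling, 3 were lower (Ahr, Smad7 and Tgfbr1) and 1 higher (Smad3). Of the 3 lower genes 2 were library-wide.

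Cells without a Cd8a UMI numbered 154 in stomach (395522 UMIs) and 1178 in colon (3461675 UMIs). Here stomach cells carried more of several transcripts known from the interleukin 17 programme and from helper cells. Of 4468 genes, 258 (5.77%) were higher and 408 (9.13%) lower. Of 18 type 17 genes 8 could be compared and were higher in stomach. Most of these entered the comparison only through the tissue where it is high, so their direction was largely fixed by the filter and the count supports nothing. Cd163l1 (chromosome 7, 140218267 to 140231145, plus strand), a scavenger receptor of interleukin 17-producing gamma-delta T cells, had 43 UMIs in 11 stomach cells and 4 UMIs in 2 colon cells, or 108.7 against 1.16 CPM. Blk, a kinase of B cells and of the same gamma-delta cells, had 25 UMIs in 10 stomach cells and 0 in colon, at least 72.9-fold higher with colon entered at 3 UMIs. Maf, a transcription factor of type 17 cells, was at 182 CPM in 43 stomach cells and 15.6 CPM in 36 colon cells. Rora was at 147 and 13.9 CPM, and Ramp1 at 306 and 63.3 CPM. Of the 11 stomach cells with Cd163l1, 10 carried Trdc, 8 Maf, 7 Blk and 5 Il17a, all 11 carried S100a4 and Cxcr6, and 0 carried Cd8a, Cd8b1 or Cd4. Il17a is listed for the stomach library but not for the colon library, so it gave no ratio. It was found in 6 stomach T cells, all with Trdc.

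The Cd8a-negative cells were divided by Trdc to see where these genes lay. In the 29 stomach and 359 colon cells with Trdc, 289 of 4749 genes (6.09%) were higher and 289 (6.09%) lower. In the 125 and 819 cells without Trdc, 272 of 4405 (6.17%) were higher and 417 (9.47%) lower. The type 17 genes compared again entered mainly through stomach, so their values are given without a count. Maf stood at 234 and 17.5 CPM in cells with Trdc and at 170.3 and 14.7 CPM in cells without it, and Rora at 179 and 18.4 CPM and at 139 and 11.6 CPM. Of the 43 stomach UMIs of Cd163l1, 42 were in cells with Trdc.

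Several helper genes were higher in the same Cd8a-negative cells. Of 8 compared, 5 were higher (Cd40lg, Tnfrsf4, Icos, Gata3 and Ctla4) and 1 lower (Ikzf2), with a median of 1.44. Gata3 also leads the markers of type 2 innate lymphoid cells, which summed to 627 CPM in stomach and 175 CPM in colon in these cells, and their part in the result was not tested. Cd40lg, which reached 50 CPM in stomach alone and is the ligand by which helper T cells signal to B cells, had 58 UMIs in 32 stomach cells and 81 UMIs in 51 colon cells, or 147 against 23.4 CPM. Icos, a co-stimulator, was at 448 and 76.3 CPM. Foxp3, the factor of regulatory T cells, had 2 UMIs in all stomach T cells and 11 in all colon T cells, too few to compare.

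**Figure D4:**
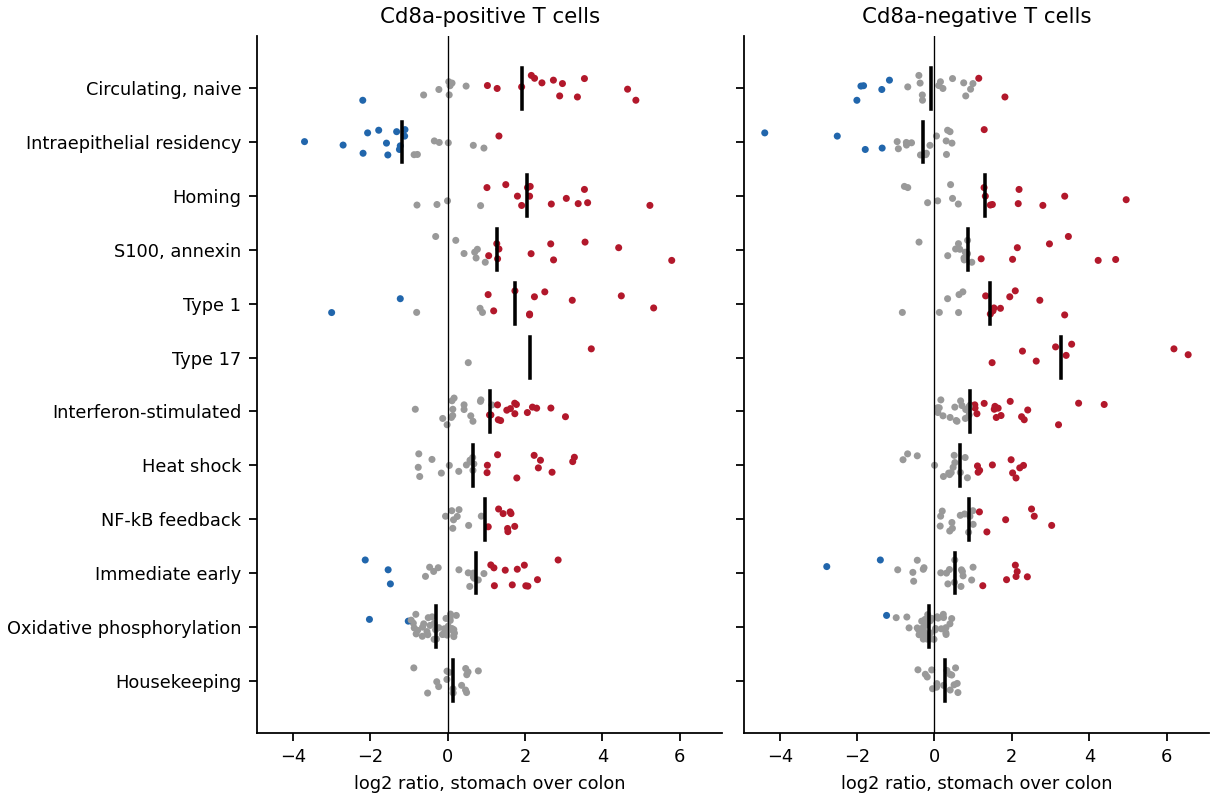
Log2 difference (stomach minus colon) of each compared gene in 12 lists, in Cd8a-positive and Cd8a-negative T cells, with a black bar at the list median and genes past 2-fold in red (higher in stomach) or blue (lower). The circulating-naive list has its median at 1.91 in Cd8a-positive and −0.10 in Cd8a-negative cells, whereas the type 17 list holds 2 and 8 compared genes.

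Chemokine receptor and S100 genes were higher in stomach in both kinds of cell. Of 17 homing genes 10 were higher over all T cells and 1, Ccr9, lower (median 1.74). Ccr2 reached 50 CPM in stomach alone and Ccr9 in colon alone, so the filter fixed the direction of both. Ccr2 (chromosome 9, 124101950 to 124113557, plus strand), the receptor for the monocyte chemoattractant Ccl2, stood at 205 CPM in stomach (109 UMIs in 54 cells) and 5.54 CPM in colon (52 UMIs in 32 cells), 37.0-fold higher (26.4 to 52.6). Cxcr6, the receptor for Cxcl16, was at 872 and 112 CPM, 7.80-fold higher (6.98 to 8.71), and its log2 difference was 2.13 in Cd8a-positive and 3.37 in Cd8a-negative cells. Both were the highest of the 4 libraries in stomach: Ccr2 was at 10.5 CPM in small intestine and 2.01 CPM in cecum, and Cxcr6 at 247 and 77.8 CPM. In NK cells Ccr2 was 2.09-fold higher (1.42 to 3.19) and Cxcr6 10.9-fold higher (5.89 to 22.9) in stomach. Ccr9, the receptor for the intestinal chemokine Ccl25, had 12 UMIs in stomach T cells and 575 in colon T cells, or 22.6 against 61.3 CPM. S100a4 (chromosome 3, 90603771 to 90606045, plus strand), a calcium-binding protein abundant in memory and migrating cells, was at 1669 CPM in 142 stomach cells and 51.0 CPM in 199 colon cells, 32.7-fold higher (29.2 to 36.6). After thinning it was found in 58.1% of stomach T cells and 3.29% of colon T cells (70.0% and 7.01% without thinning), against 8.57% and 0.562% of B cells. It was library-wide, with a 5.54-fold difference (4.14 to 7.57) in NK cells. Of 19 genes of its list 9 were higher and 0 lower, among them Anxa1, S100a6, Lgals1 and Ahnak. Anxa1 had 49 UMIs in 37 stomach cells and 16 UMIs in 11 colon cells.

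Granule and NK-type receptor genes differed in both directions. Of 14 cytotoxic granule genes 4 were lower in stomach (Gzma, Gzmb, Ctsc and Lamp1) and 1 higher (Ctsd). Ctsd and 1 of the 4 lower genes were library-wide. In NK cells Gzma, Gzmb and Lamp1 were also lower in stomach, at log2 differences of −1.29, −1.74 and −1.93. Ctsc was short of 2-fold there, at −0.29. Whether these differences belong to the T cells or to the library was not tested. Granzyme A (Gzma) stood at 290.0 CPM in 7 stomach cells and 1600 CPM in 269 colon cells, and 37.7% of the stomach UMIs came from 1 cell. Granzyme B (Gzmb) was at 324 and 1088 CPM, and its log2 difference was −2.38 in Cd8a-positive and −0.20 in Cd8a-negative cells. In Cd8a-positive cells Gzmk, Gzmm and Prf1 were higher: Gzmk, a granzyme of memory CD8 cells, had 16 UMIs in 12 stomach cells and 51 UMIs in 37 colon cells, or 118 against 8.61 CPM. Of 11 NK-type receptor genes 4 were lower (Klrd1, Klra5, Klra6 and Klrb1a) and 3 higher (Klrk1, Klra1 and Klra9). Klrd1, a partner chain of several NKG2 receptors, was at 569 and 1587 CPM, while Klrk1, which encodes the activating receptor NKG2D, was at 556 and 136 CPM. Genes of the Klra family are close copies, so reads may be split among them.

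Several type 1 effector genes were higher in stomach. Over all T cells 9 of 14 were higher and 0 lower (median 1.70). Members such as Tnf reached 50 CPM in stomach alone, which fixed their direction, so the count and median are no support by themselves. Ifng reached it in both tissues over all T cells, but in stomach alone in Cd8a-positive cells. Ifng (chromosome 10, 118441046 to 118445892, plus strand) encodes interferon gamma. It stood at 616 CPM in stomach (327 UMIs in 90 cells) and 93.5 CPM in colon (877 UMIs in 213 cells), 6.59-fold higher (5.79 to 7.49). The difference was 22.5-fold (17.7 to 28.3) in Cd8a-positive cells, at 834 and 37.1 CPM, and 2.85-fold (2.43 to 3.33) in Cd8a-negative cells, at 541 and 190 CPM. These intervals do not overlap, but the difference between the strata had no replicate check. In the cells with both CD8 chains it was 6.51-fold (4.73 to 9.01). Tnf was at 117 and 14.5 CPM and Ccl4 at 823 and 149 CPM, both library-wide. Ccl5, the most abundant member, was at 6721 and 7462 CPM. Xcl1 was at 1301 and 1584 CPM over all T cells and was lower in Cd8a-positive cells alone, at 783 and 1827 CPM.

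Immediate early, heat shock and NF-kappa-B genes, which respond rapidly to stimulation or stress, were higher in part. Of 26 immediate early genes 8 were higher, 3 of them library-wide, and 2 lower, led by Zfp36 at 1126 and 184 CPM and Atf3 at 524 and 91.9 CPM. Jund was lower in stomach T cells, at 482 and 2649 CPM, and was library-wide in all 3 other cell types. Of 23 heat shock genes 9 were higher and 0 lower, and 8 of the 9 were library-wide. Hspa1a was at 4770.4 CPM in stomach and 761 CPM in colon T cells, and at 4782 and 582 CPM in NK cells. Of 18 NF-kappa-B genes 9 were higher, 2 of them library-wide, and 0 lower, with Nfkbia, the inhibitor that NF-kappa-B itself induces, at 2906 and 932 CPM.

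Interferon-stimulated genes were higher in stomach or differed by less than 2-fold. Of 33 compared over all T cells, 17 were higher and 0 lower, with a median log2 difference of 1.04, and 3 of the 17 were library-wide. Members such as Ifit1 reached 50 CPM in stomach alone and could only come out higher, so the count is no support by itself. Isg15 reached it in both tissues. Ifit1, which binds foreign RNA ends, had 73 UMIs in 15 stomach cells and 129 UMIs in 76 colon cells, or 137 against 13.7 CPM. Ifit3, its partner, had 46 UMIs in 13 stomach cells and 80 UMIs in 28 colon cells. A single cell gave 39.7% of the stomach UMIs of Ifit1 and 34.8% of those of Ifit3. Isg15, a ubiquitin-like modifier, was spread over more cells, with 138 UMIs in 55 stomach cells and 555 UMIs in 368 colon cells, or 260 against 59.1 CPM. Among Cd8a-negative cells 1 of 24 members was higher in those with Trdc and 23 of 33 in those without, a difference between strata that was not tested. Of the 13 stomach cells with Ifit3, 8 also carried Ifit1, 10 carried Trac and 0 carried Trdc. The promoters of the 3 genes just named are shown because they hold the DNA element through which interferon acts on such genes. The stretches lie in the window from 250 bases before to 50 after the start of the gene in RefSeq (GRCm38.p6), are read 5′ to 3′ on the strand of the gene, and have in capitals each match to GAAANNGAAA or its reverse complement TTTCNNTTTC, overlapping matches merged.
Ifit1 (chr19:34640777-34640821, plus strand): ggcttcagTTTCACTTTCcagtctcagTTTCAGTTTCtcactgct
Ifit3 (chr19:34583365-34583424, plus strand): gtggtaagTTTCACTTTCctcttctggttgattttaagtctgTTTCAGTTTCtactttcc
Isg15 (chr4:156200867-156200904, minus strand): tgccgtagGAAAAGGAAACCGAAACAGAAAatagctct
Such a match, on either strand, was found for 1079 of the 27025 genes with a RefSeq promoter of this length (3.99%). It was found in 15 of the 28 compared members of the list that have a promoter in the table (53.6%), in 8 of 14 of those higher in stomach (57.1%) and in 7 of 14 of the others.

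Checkpoint receptor genes differed in both directions, and few genes of metabolism and division passed the limit. Of 11 checkpoint genes 3 were higher (Pdcd1, Ctla4 and Lilrb4a) and 4 lower (Tox, Lag3, Cd160 and Cd96). Tox, a transcription factor of chronically stimulated T cells, was at 107 and 373 CPM. Of 37 oxidative phosphorylation genes 0 were higher and 1, Cox7a2, lower. Of 10 cholesterol and fatty acid genes 1, Insig1, was lower, and of 9 division genes 1, Mki67, was lower, at 24.5 and 55.2 CPM.

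The genes furthest below colon were lower in the other cells of the stomach library as well. Taf10, a subunit of the transcription factor TFIID, had 3 UMIs in stomach T cells and 2333 in colon T cells, Smap1 5 and 2834, and Hist1h2ac, a replication-linked histone gene, 2 and 1786. All 3 were library-wide in the 3 other cell types. Of the 212 lower library-wide genes that could be matched to a transcript, 29 (13.7%) had a single exon, against 12 of 227 (5.29%) of the other lower genes and 4.92% of all genes compared. Among higher genes it was 7 of 42 library-wide genes (16.7%) and 5 of 248 others (2.02%). Among lower genes that were not library-wide, Epcam, an epithelial adhesion protein also found on intraepithelial lymphocytes, had 4 UMIs in stomach T cells and 1395 in colon T cells, where 12.4% came from 1 cell. In Cd8a-negative cells it was lower by the same rule (2 and 521 UMIs, with 33.2% of the colon UMIs in 1 cell), but not past the limit when cells with further transcripts of other cell types were left out. Each library lists 12 of 18 epithelial markers, and these summed to 41.4 and 319 CPM. The 12 are not all the same genes, since some, such as Gkn1, are listed for stomach alone and others, such as Muc2, for colon alone. Il6st, the shared receptor chain of the interleukin 6 family, had 4 and 828 UMIs, and Capn3, a calcium-dependent protease, 16 and 3088. Though not library-wide by the rule, Capn3 was also lower in stomach NK cells, with 1 and 14 UMIs (log2 difference −6.39). Spry2, which restrains receptor tyrosine kinase signalling, was at 86.6 and 332 CPM over all T cells and at 22.1 and 344 CPM in Cd8a-positive cells.

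Both strata could be compared for 4151 genes. Of these, 137 were higher in both and 256 lower in both, and 1, Dpp4, was past 2-fold in opposite directions. Dpp4 reached 50 CPM in a different tissue in each stratum, so the filter fixed both of its directions. The median log2 difference was −0.07 in Cd8a-positive and −0.01 in Cd8a-negative cells. The same genes were then read in NK cells of the same 2 libraries. Of the 294 genes higher in stomach T cells, 276 were measured in NK cells, where 97 were at least 2-fold higher in stomach and 7 at least 2-fold lower, with a median log2 difference of 0.71. Of the 447 lower genes, 419 were measured, with 237 lower and 8 higher and a median of −1.22. Of the 3709 measured genes not past the limit in T cells, 238 were at least 2-fold higher in NK cells and 168 lower. Their median was 0.04.

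**Figure D5:**
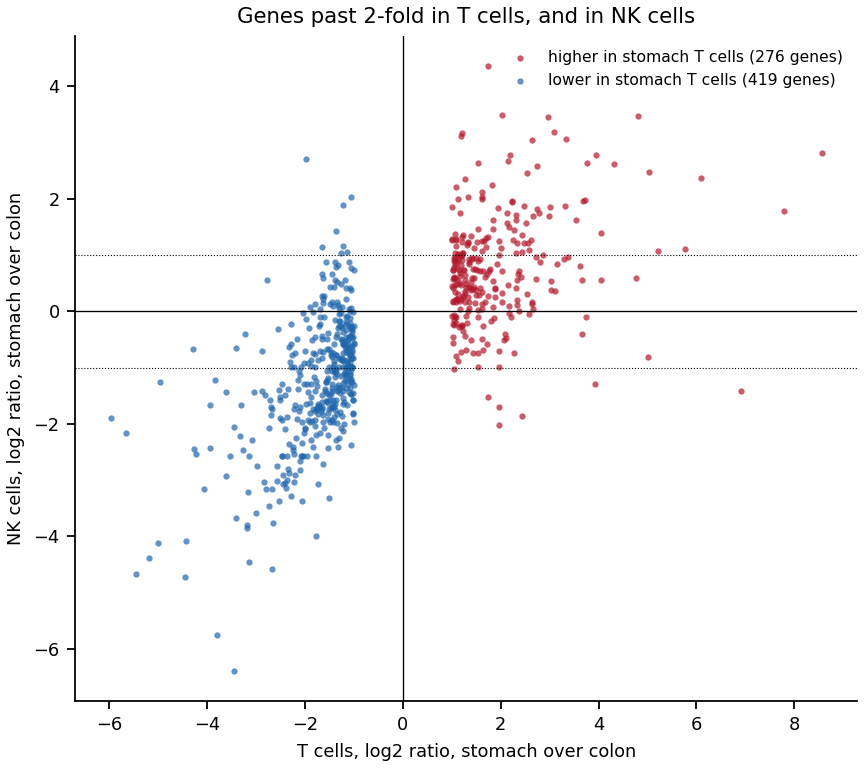
Log2 difference (stomach minus colon) in NK cells (y) against that in T cells (x) for the 276 higher and 419 lower genes with at least 10 UMIs in NK cells. The higher genes centre on 0.71 in NK cells and the lower genes on −1.22.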

How the data were processed

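Single-cell 3′ RNA was measured in 4 libraries, 1 per tissue. Reads were aligned and UMIs counted by the authors with Cell Ranger against GRCm38 (mm10), and Seurat 3.0.0 is also named, per the submitters' processing notes. The deposited matrices hold whole-number UMI counts per gene and barcode, with no normalization. Depth is given with each group of cells.

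Members and gene lists were chosen with earlier results of these data known. UMIs were summed over the T cells of each library and divided by their total (CPM). Ratios carry exact conditional binomial 95% intervals, and shares carry exact Clopper-Pearson intervals. Both treat UMIs or cells as independent and cover counting error only. A gene was compared with at least 20 UMIs in total and 50 CPM in either library, and called at 2-fold or more with an interval excluding 1. A count of 0 was entered at 3 UMIs. Shares were compared after thinning each cell to 1000 UMIs, drawn separately for each group of cells. No doublet caller was run. With 1 library per group no test across samples was possible.

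Genes were named as the 12 highest and 12 lowest per comparison by the interval bound nearest 1, with at least 10 cells in the higher library, and from each list the members with most UMIs and furthest from 1. Others, among them Lef1, Ccr7, S1pr1, Itgae, Isg15, Il17a, Foxp3, Prf1, Fcer1g, Cd69, Ahnak and Mki67, were named after their values were seen, as were the divisions by Cd8b1 and Trdc. Some list members are counted but not reported here by name. Gene positions are from GENCODE vM21 and promoters from RefSeq. Interval coverage was checked on simulated counts. Over all T cells the interval held the true ratio for 95.9% of 4064 unchanged genes and 83.3% of 42 genes at a ratio of 0.25. The counts were independent Poisson draws, under which the interval is exact. The check therefore cannot show how the intervals fare where UMIs cluster in single cells. Python 3.11.15, numpy 2.4.6, scipy 1.17.1 and pandas 2.3.3 were used.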

Additional observations from a re-analysis of the deposited data

Results flagged for a closer look

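Dpp4, which encodes the surface peptidase CD26, was past 2-fold in opposite directions in the 2 kinds of T cell. Its log2 difference (stomach minus colon) was 1.24 in Cd8a-positive cells, at 88.6 and 37.5 CPM (12 and 222 UMIs), and −1.32 in Cd8a-negative cells, at 20.2 and 50.6 CPM (8 and 175 UMIs). It reached 50 CPM in stomach alone in the Cd8a-positive cells and in colon alone in the Cd8a-negative cells. The filter therefore fixed both directions, and the opposite calls are no support by themselves. The difference between the strata was not tested.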

How the results depend on the processing

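With 20 UMIs in total as the only filter, 652 genes were higher and 1003 lower over all T cells, and 482 higher and 759 lower in Cd8a-negative cells. A filter on the mean of both CPM gave 280 lower over all T cells and 259 in Cd8a-negative cells. With library-wide genes left out, a choice made after seeing the data, 231, 357 and 194 genes were lower over all, Cd8a-positive and Cd8a-negative cells. In Cd8a-positive cells, 263 genes were higher and 840 lower without the top cell of each gene, 217 were higher with both CD8 chains required, and 210 were lower after thinning. Excluding more transcripts of other cells left 54 stomach and 940 colon T cells, with 197 genes lower in Cd8a-positive and 267 in Cd8a-negative cells. The other 79 recomputed counts stayed within 1.5 times. Of 16 shares, recomputed without thinning or with 2 UMIs required, 14 moved outside their interval, and of 971 list medians 3 moved: in Cd8a-negative cells, NK-type receptor genes went from 0.62 to −1.02 under the wider exclusion, and division genes at −0.38 with 20 UMIs alone and −0.95 in cells with Trdc. No named gene reversed, and 11 of 940 recomputed values of named genes lost their call. The causes were not tested. No paired analysis was possible because each tissue has 1 library. The stomach groups are small (49 Cd8a-positive cells, 42 with both CD8 chains and 29 Cd8a-negative cells with Trdc), which limits precision, and tissue and library cannot be told apart.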
